A study of Schizosaccharomyces pombe with 2 samples.

Results

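Heterochromatin in fission yeast (Schizosaccharomyces pombe) silences the centromeric repeats, the telomeres and the mating-type region. RNA interference helps to build it: the polymerase Rdp1 makes double-stranded RNA, the ribonuclease Dcr1 (Dicer) cuts it into small RNAs, and the Argonaute protein Ago1 carries these in the RITS complex, together with the chromodomain protein Chp1 and the linker Tas3. The methyltransferase Clr4 marks histone H3, the HP1 protein Swi6 binds the mark, and the SHREC complex, which holds Clr1, Clr2 and the histone deacetylase Clr3, removes acetyl groups. The messenger RNAs of these 10 genes are described here, chosen by gene name among 5289 features, of which 5113 are protein-coding genes.

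The places where these messenger RNAs were cleaved and polyadenylated were mapped by 3' READS, a sequencing method in which each read marks the end of a polyadenylated RNA. Strain FWP9, labelled as wild-type, was grown exponentially in the rich medium YPD at 30 °C, and 2 libraries (replicates A and B) were made. With this single group there was no condition to compare and no test was made. Separate cultures are not mentioned in the labels, so the spread between A and B may be technical. Within a window of 400 nt that begins directly behind the stop codon, where position 1 is the first base, protein-coding genes had 50968622 reads in A and 54738103 in B.

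The coding sequences are given on assembly ASM294v3 from the start codon to the stop codon. The SHREC genes are clr1 (SPBC2D10.17, chrII:2997238-3000954, plus strand), clr2 (SPAC1B3.17, chrI:4965276-4966889, plus strand) and clr3 (SPBC800.03, chrII:254822-256885, plus strand). The methyltransferase gene clr4 is SPBC428.08c (chrII:456575-458047, minus strand), and the HP1 gene swi6 is SPAC664.01c (chrI:1703015-1704001, minus strand). The RITS genes are ago1 (SPCC736.11, chrIII:334137-337012, plus strand), chp1 (SPAC18G6.02c, chrI:2210977-2213859, minus strand) and tas3 (SPBC83.03c, chrII:1514479-1516128, minus strand). Dicer is dcr1 (SPCC188.13c, chrIII:1506166-1510290, minus strand), and the polymerase is rdp1 (SPAC6F12.09, chrI:1325253-1328900, plus strand). The most used sites described next all lie behind the stop codon, and their place relative to the annotated 3' end is given with the results.

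The 30 genome bases (RefSeq, ASM294v3) that end at the most used site of a gene show the letters before the cut. The most used site is the position with the highest share of reads, averaged over the replicates. In 4 of the 7 measured genes the highest position was not the same in A and B, against 27.6% of measured genes and 34.3% of those with 100 to under 1000 reads. It was 400 in A and 356 in B for swi6, 344 and 335 for clr3, 64 and 82 for ago1, and 169 and 171 for chp1, so the sequences of these genes stand for 1 of several sites. The poly(A) signal searched was AATAAA or 1 of its 18 single-base variants, on the strand of the gene, with all bases 10 to 40 nt before the site. The sequences of the 7 genes with enough reads are given 5′ to 3′ with matches in capitals, where neighbouring or overlapping matches form 1 run.
clr1: ggtttaatccaactggcgtgaatctctctg
clr2: atgggAATAATAATgtcttttgcatttcat
clr3: tttTATAAAATAAAgctcctcaaatccgtg
swi6: gtgtctAATAATAACgtaattttactcgtt
ago1: tggattgcccacaacttttacttccttatt
rdp1: tttttaaatcgAATATAcattcgaagcttt
chp1: gattAATTAATTAATTAAttttttcactat
The stretches lie at chrII:3001006-3001035 on the plus strand for clr1 and chrI:4966968-4966997 on the plus strand for clr2. That of clr3 is chrII:257200-257229 on the plus strand, and that of swi6 chrI:1702615-1702644 on the minus strand. Those of ago1 (chrIII:337065-337094) and rdp1 (chrI:1328894-1328923) are on the plus strand and that of chp1 (chrI:2210806-2210835) on the minus strand. The rdp1 stretch opens with the end of the coding sequence and its stop codon.

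A match was found for 5 of the 7 genes, against 71.3% of all measured genes at their most used site and 36.1% of all windows of this length in positions 1 to 400 of measured genes. The full AATAAA occurred in clr3 alone, with its first base 21 nt before the site, against 20.6% of measured genes and 4.95% of all windows. In chp1 AATTAA was found at 3 overlapping places, 25, 21 and 17 nt before the site. In swi6 the matches were AATAAT and AATAAC, 23 and 20 nt before. In clr2 AATAAT began 24 and 21 nt before the site and once more at 35 nt, outside the printed bases. In rdp1 AATATA began 18 nt before the site and AATAAT at 34 nt, also outside. For clr1 and ago1 these letters were not in the window of this site. At the highest positions of A alone 6 genes had a match, ago1 with its site at 64 among them. At those of B alone 4 genes did. In the 10 genome bases behind the site, A occurred 8 times for swi6, 6 times each for clr1 and clr2, and 2 to 5 times for the others. At least 6 A were found for 3 of the 7 genes, against 16.8% of measured genes, a count added after the values were seen. Whether reads at these sites arose by priming at A in the RNA was not tested.

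The number of reads sets how well the ends of a gene can be placed. A gene was counted as measured with at least 50 reads in the window in each replicate. Among the 10 genes 7 were measured, against 74.7% of all protein-coding genes. Argonaute was highest: ago1 had 791 reads in replicate A and 857 in B, or 15.5 and 15.7 RPM (window reads per 1000000 window reads of protein-coding genes). Reads mark ends of RNAs, so these levels are not divided by gene length. They leave out ends past position 400, where the annotated 3' end of swi6 lies. The HP1 gene swi6 had 312 and 279 reads, the RNA-dependent RNA polymerase gene rdp1 had 364 and 202, and the zinc-finger gene clr1 of SHREC had 213 and 302. Those of chp1 were 176 and 265, those of clr2 174 and 261, and those of the deacetylase gene clr3 283 and 140. These 6 genes ranged from 2.56 to 7.14 RPM over both replicates. Both values of swi6 (6.12 and 5.10 RPM) lay above both of clr2 (3.41 and 4.77 RPM) and of chp1 (3.45 and 4.84 RPM), the other pairs among the 6 overlapped, and ago1 lay above all of them. In reads the 6 genes stood between the 36.1 and 50.3 percentiles of all protein-coding genes, and ago1 at the 66.6 percentile in A and 70.3 in B.

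**Figure D1:**
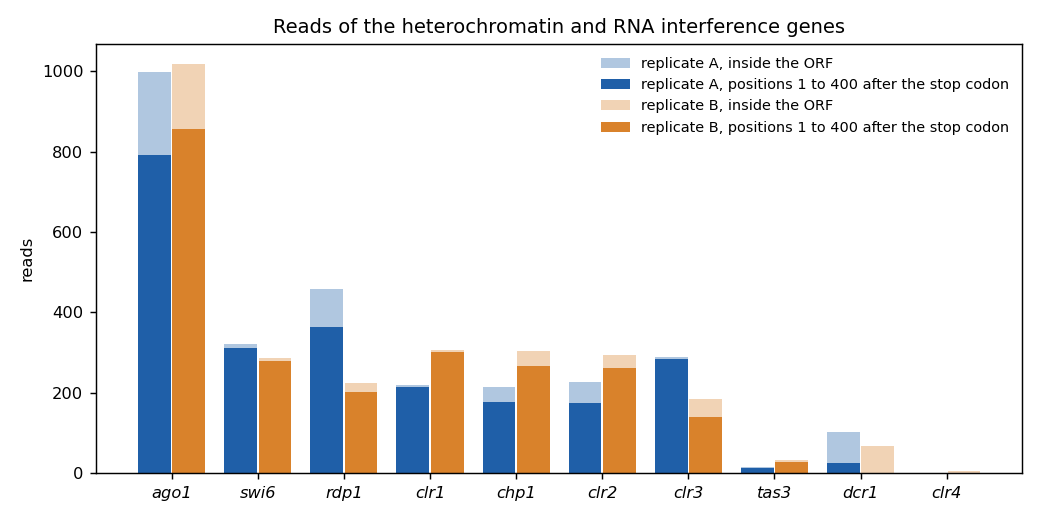
Reads of each of the 10 genes in replicates A (blue) and B (orange), on a linear axis; dark bars are reads in the window of 400 nt behind the stop codon, and pale bars stacked on them are reads inside the open reading frame. The bars of ago1 are the highest in both replicates, those of dcr1 are mostly pale, and those of clr4 are near 0.

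The other 3 genes had few reads after the stop codon. The linker gene tas3 of RITS had 11 reads in A and 28 in B. In A, 6 of them lay at position 134 and 5 at 236, and in B 27 lay at 213 and 1 at 228, so no position was shared. The Dicer gene dcr1 had 25 reads in A, all at position 397, and none in B, where 3 reads, the limit that a count of 0 allows, would be 0.0548 RPM. The methyltransferase gene clr4 had no read in A, which allows up to 0.0589 RPM, and 1 in B, at position 154. Annotated 3' ends of these genes lie past the window: 473 nt after the stop codon for tas3, 1217 nt for dcr1 and 2579 nt for clr4. That of swi6 lies at 609 nt, which makes 4 of the 10 genes, against 28.8% of all protein-coding genes. Whether their messages end past position 400 cannot be told from these tables.

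Among the 7 measured genes the ends ran from close to the stop codon to the edge of the window. The mean position, weighted by reads, was 31.1 nt in A and 39.7 nt in B for rdp1, or 35.4 ± 6.11 nt (SD, n = 2), and 96.5% of measured genes ended farther out. The median position and the most used site of rdp1 were both 23 nt. For clr2 it was 80.9 and 75.9 nt (78.4 ± 3.51 nt) and for clr1 89.1 and 96.8 nt (92.9 ± 5.45 nt). For ago1 it was 116 and 112 nt (114 ± 3.02 nt). By this measure both replicates of clr1 lay between those of clr2 and ago1, but clr2 came after both with the median position of the reads (100.5 nt, against 82.5 nt for clr1 and 82 nt for ago1) and with the most used site (108, against 81 and 82 nt). The chp1 gene had 170.9 and 170.6 nt (171 ± 0.207 nt). Both clr3, with 311 and 309 nt (310 ± 1.39 nt), and swi6, with 357 and 320 nt (338 ± 25.6 nt), lay far out, at the 92.2 and 95.8 percentiles of measured genes. Within positions 1 to 300 alone, the means were 222 nt for clr3 and 144 nt for swi6. By the mean position the 7 genes had the same order in A and B, with no overlap between neighbours. The median of the 7 was 114 nt, against 143 nt for all 3818 measured genes, and 4 of the 7 were nearer to the stop codon than that, against 50% of measured genes by definition.

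**Figure D2:**
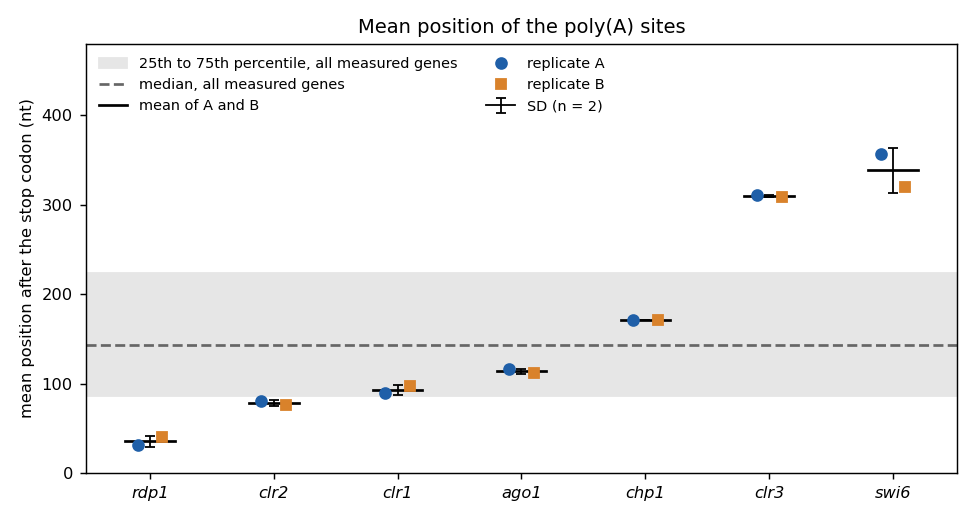
Mean position of the poly(A) sites of the 7 measured genes in nt after the stop codon. Blue circles are replicate A, orange squares replicate B, and black lines the mean with its SD (n = 2). The dashed line and grey band are the median and the 25th to 75th percentiles of all measured genes; rdp1 and clr2 lie under the band, and clr3 and swi6 lie above it.

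The members of 1 complex did not end at a common distance. In SHREC, clr1 and clr2 differed by 14.5 nt in mean position, while clr3 lay 217 nt past clr1. The other SHREC genes, mit1, which encodes a chromatin remodelling ATPase, and chp2, which encodes a second HP1 protein, had 30.8 ± 2.38 nt and 74.9 ± 0.0824 nt (SD, n = 2). In RITS, chp1 lay 57.1 nt past ago1.

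Most of the genes used several sites. Reads were grouped into clusters that reach 12 nt to each side of their highest position and hold at least 10% of the reads. At least 2 clusters were found in 6 of the 7 genes, against 67.9% of all measured genes and 73.1% of genes with 100 to under 1000 reads in each replicate, the depth of these 7. The exception was chp1. All of its 176 reads in A and 265 in B lay between positions 169 and 182, and their width, the distance that leaves out the first and the last 10% of the reads, was 7 nt in A and 4 nt in B. At its most used position, 171, it had 36.4% of the reads in A (95% Wilson interval 29.6% to 43.7%) and 46.4% in B (40.5% to 52.4%). Such intervals, like the limits for a count of 0, cover counting error only.

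Argonaute had the most clusters, 5. The cluster topped by position 64 held 22.5% of the ago1 reads in A and 23.6% in B, and the next, at 82, held 26.2% and 28.1%. The cluster at 100 held 8.85% and 21.2%, and that at 130 held 14.9% and 6.53%. The distal cluster at 240 took 14.9% in A and 14.1% in B, so its share was nearly the same in both libraries while the shares at 100 and 130 were not. The width of ago1 was 176 nt in both replicates.

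The SHREC gene clr1 had a main cluster at 81, with 91.1% of its reads in A and 63.2% in B, and a second at 155, with 8.45% and 22.2%. Its width was 3 nt in A and 74 nt in B, so its ends were narrow in A only. For rdp1 the main cluster at 23 held 60.4% and 61.4%. It was flanked by one at 9, with 26.4% and 13.9%, and one at 66, with 10.4% and 21.8%. The share of the main rdp1 cluster was nearly equal in A and B, while in B the near cluster held less and the far one more. In clr2 the cluster at 108 held 56.3% and 39.5%, and those at 22, 44 and 95 held 27.0%, 2.30% and 13.2% in A and 6.90%, 28.0% and 14.2% in B. In clr3 the cluster at 344 held 49.8% and 62.1%, and smaller ones lay at 195, 255 and 325. The deacetylase gene clr3 used the cluster at 255 in A alone, with 21.9% of its reads against 0% in B. In swi6 the cluster at 339 held 50% and 32.3%, that at 356 held 0.321% and 43.0%, and the last position of the window, 400, alone held 41.7% and 11.5%. Since swi6 reads reach the edge of the window and its annotated end lies past it, its mean position describes only the ends inside the window.

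Besides clr1, widths differed between the replicates in clr3 and swi6, less in clr2, and not in rdp1. They were 86 nt in A and 68 nt in B for clr2, 91 and 154 nt for clr3, 66 and 185 nt for swi6, and 62 nt in both for rdp1. The median of the 7 genes was 77 nt, against 62.5 nt for all measured genes and 81.5 nt for those with 100 to under 1000 reads. A width above 62.5 nt was found for 4 of the 7, against 50% of measured genes.

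**Figure D3:**
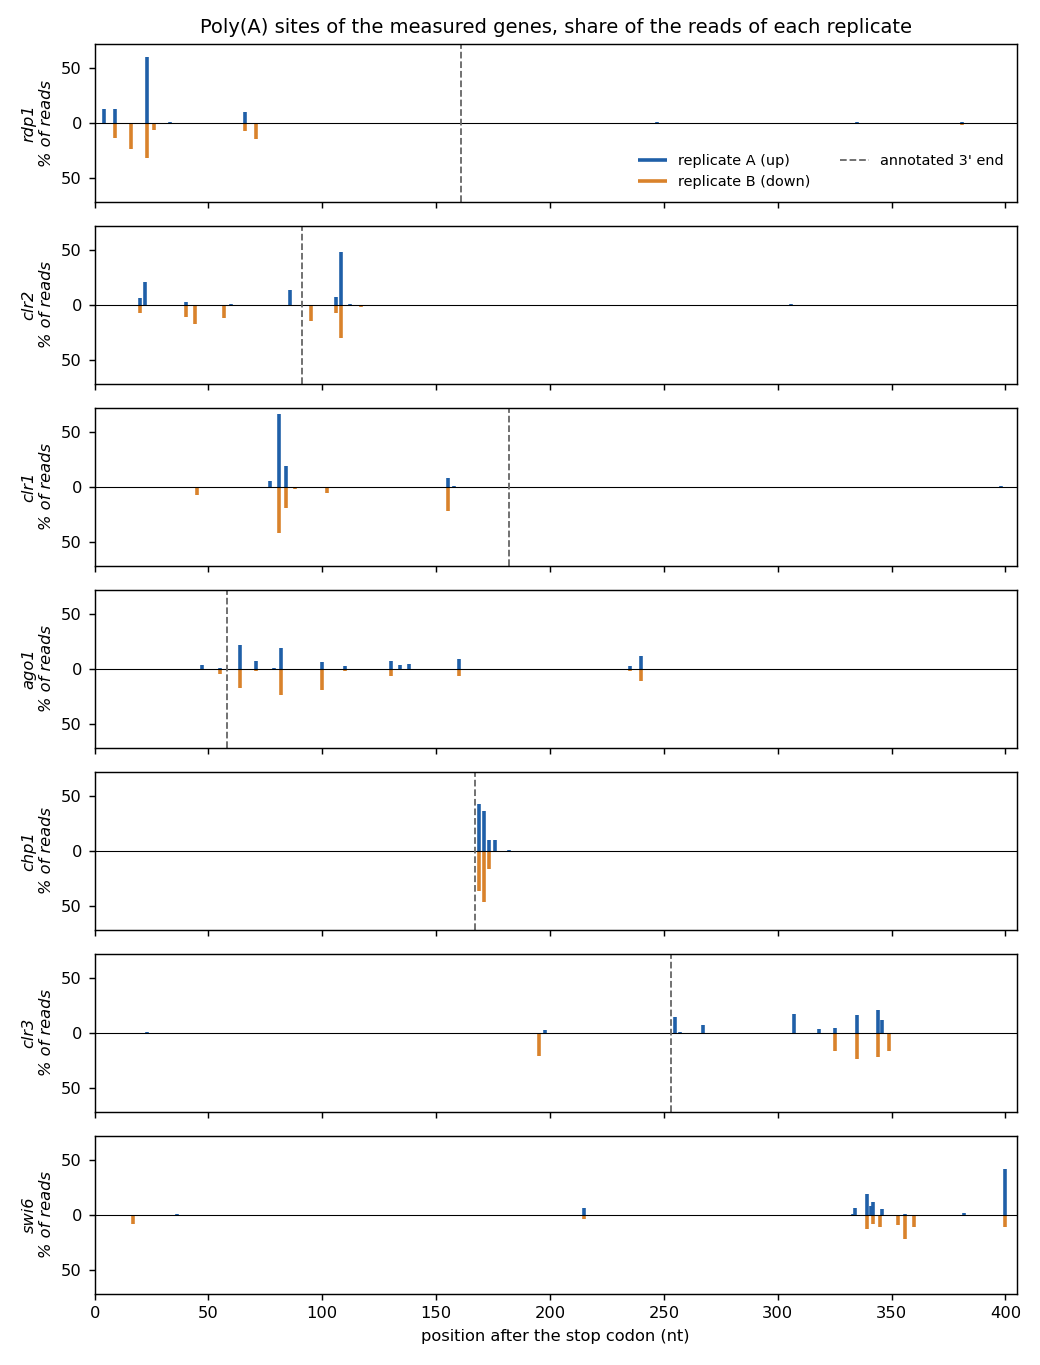
Share of the reads of a gene at each position after the stop codon (nt), for the 7 measured genes. Blue lines upward are replicate A and orange lines downward replicate B, and the dashed line is the annotated 3' end where it lies within 400 nt. The sites of chp1 form 1 group, and those of swi6 reach position 400. Those of ago1 spread from 47 to 248 nt, apart from single reads at 5 and 309 nt.

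The replicates set limits to how far single sites can be read. Mean positions differed by at most 10 nt for 6 of the 7 genes, against 66.1% of measured genes and 54.4% of those with 100 to under 1000 reads. The exception was swi6, with 36.3 nt, where counting error alone gives an SE of 6.66 nt. The difference was 7.71 nt for clr1 (counting SE 2.79 nt), 8.64 nt for rdp1 (4.98 nt) and 0.292 nt for chp1 (0.196 nt). Shares at single positions moved more than means did. In 4 of the 7 genes a position with at least 10% of the reads in 1 library had no read in the other, against 30.9% of measured genes and 43.7% at 100 to under 1000 reads. In clr3, position 307 had 48 reads in A and none in B, and position 195 had none in A and 29 in B. In clr2, position 44 had none in A and 45 in B. The same was found in rdp1 at positions 4 and 16 and in swi6 at 345 and 360. The profiles of A and B overlapped by 36.8% in swi6, the lowest of the 7, by 73.6% in ago1 and by 83.2% in chp1. The median was 53.4%, against 65.1% for genes with 100 to under 1000 reads. Each gene had reads at only 4 to 20 positions of the window per replicate.

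The main site lay past the annotated 3' end in 4 of the 7 genes, against 15.5% of measured genes. Sites were sought only up to position 400, so genes annotated to end past it, swi6 among the 7, could not count. The measured genes behind the 15.5% include such genes. In ago1 the annotated end is 58 nt after the stop codon and the main site 82 nt, 24 nt farther. The ago1 clusters from position 64 outward, the distal one at 240 included, thus have their tops past the annotation. The main site of clr3 lay 91 nt past the annotated end, that of clr2 17 nt and that of chp1 4 nt. In the others it lay before the annotated end, at -138 nt relative to it in rdp1, -101 nt in clr1 and -209 nt in swi6. This count, like that of reads inside the open reading frame, was chosen after the values were seen.

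Reads inside the open reading frame (ORF) were frequent in these genes. The ORF share is the percentage of the ORF and window reads of a gene that lie inside the ORF. In the Dicer gene it was 75.7% in A, with 78 ORF reads at 8 positions, and 100% in B, with 66 at 9 positions. Reads past position 400, where the annotated end of dcr1 lies, do not enter this share. The values were 20.7% and 15.7% for ago1, with 206 and 160 ORF reads, 18.1% and 12.5% for chp1, and 23.3% and 10.9% for clr2. For rdp1 they were 20.7% and 9.82%. The ORF reads lay at few positions, 12 in A and 10 in B for ago1 and 3 and 5 for chp1. They lay at 4 positions in each replicate for clr2 and at 3 and 6 for rdp1. Lower shares were found for clr1, with 2.74% and 1.63%, and for swi6, with 2.50% and 2.45%. These too lay above the median of 0.870% over all genes with enough reads. In clr3 the replicates parted, with 1.74% in A and 23.5% in B. The few reads of tas3 included 4 ORF reads in A and 5 in B, and clr4 had 3 in B only. At least 10% in both replicates was reached by 4 of the 8 genes with at least 50 ORF and window reads in each library, namely dcr1, ago1, chp1 and clr2. With 25 and 0 window reads, dcr1 met this minimum only through its ORF reads, so its share could not be under 10%. Of all genes with that many ORF and window reads, 6.43% reached 10% in both replicates. These include genes that, like dcr1, met the minimum only through ORF reads. Among the 7 members with 100 to under 1000 window reads, 3 reached 10% in both replicates. The share was 5.43% for all genes of that depth and 6.48% for those that also have an ORF of at least 1500 nt. The median ORF share was 15.3% over the 8 genes and also over those 7 members. It was 0.870% over all genes, 1.41% at 100 to under 1000 window reads and 2.30% with the long ORF as well. The tables do not list positions inside the ORF, so their place in the coding sequence was not analysed here, and priming at stretches of A within it was not tested.

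**Figure D4:**
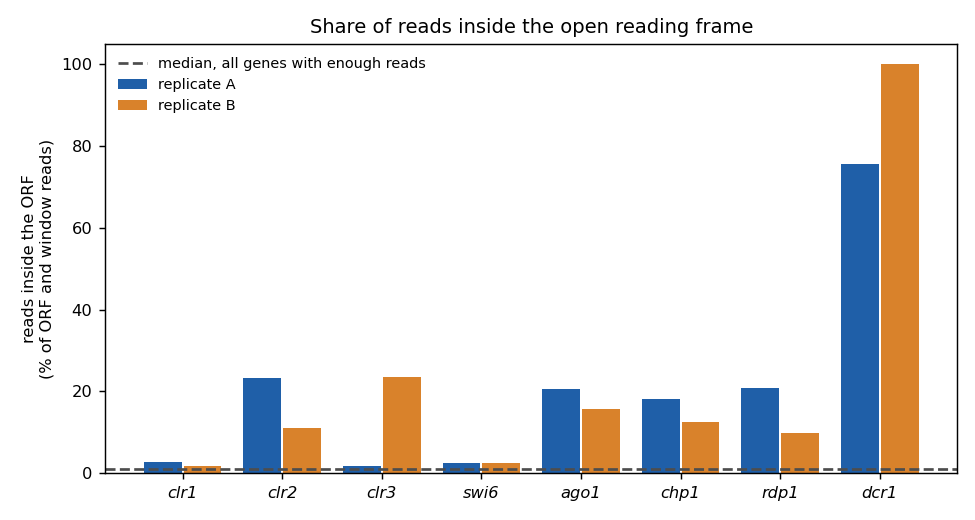
Reads inside the open reading frame as a percentage of ORF and window reads, for the 8 genes with at least 50 such reads in each replicate (blue A, orange B). The dashed line is the median of all genes with that many reads, 0.870%; both bars of dcr1, ago1, chp1 and clr2 reach 10%, and clr3 does so in B only.

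Genes that run toward each other can make overlapping RNAs, which fission yeast can turn into double-stranded RNA, so the next coding gene was looked up for each member. It ran in the opposite direction for 6 of the 10, clr2, clr3, clr4, ago1, dcr1 and rdp1, against 54.3% of all protein-coding genes. Of these, 3 could be compared with a measured neighbour, and in none did the most used sites pass each other, against 26.6% of 1871 such genes. In clr2 the gap was smallest: its main site at 108 stopped 17 nt short of that of mrps18, which encodes a mitochondrial ribosomal protein and ended at 208 nt from the other side of a spacer of 333 nt between the stop codons. The main site of rdp1 lay 235 nt short of that of ade3, a purine synthesis gene. That of clr3 lay 2280 nt short of that of rpl4301, which encodes a ribosomal protein. The stop codons of this pair are 2691 nt apart, so sites within 400 nt of each could not pass each other. The 1871 genes were not selected by distance, so they may hold such pairs too. The most used sites of clr2 and ago1 lie past their own annotated ends and inside the annotated transcripts of mrps18 and mmi1 on the opposite strand. Non-coding RNAs were left out of this search, and some are annotated on the opposite strand. SPNCRNA.1331 (chrII:254617-257138) spans the coding sequence of clr3, and SPNCRNA.1570 (chrII:3001074-3003417) holds the clr1 cluster at 155. SPNCRNA.2988 (chrI:2209681-2210764) reaches into the chp1 window, past the chp1 reads. The strands were counted apart at rdp1: ade3 had 37570 window reads in A and 38146 in B with its main site inside the rdp1 window, where rdp1 had 364 and 202.

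The other pairs could not be compared, since ago1 has a neighbour with too few reads and for dcr1 and clr4 both genes of the pair had too few. The stop codons of dcr1 and the septin gene spn6 are only 20 nt apart, so the 25 dcr1 reads of replicate A at position 397 fall inside the coding sequence of spn6, on the opposite strand, and spn6 itself had 5 window reads in A and none in B. The annotated end of clr4, 2579 nt after its stop codon, lies past the whole of meu6, whose stop codon is 262 nt away and which had 1 read in A and 53 in B. The neighbour of ago1, 816 nt away, is mmi1, whose product removes meiotic messages, with 5 reads in A and 59 in B.

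A wider list of 31 genes of silencing and linked pathways was set beside these members, with older names matched through RefSeq. It holds the other subunits of the Clr4, SHREC, Argonaute and RNA-dependent RNA polymerase complexes, deacetylases, CENP-B proteins, histone chaperones and RNA surveillance factors. Of the 31 genes 26 were measured, against 74.7% of all protein-coding genes, with a median position of 113 nt, and 18 of them were under the 143 nt of all measured genes, against 50%. Replicates differed by at most 10 nt in 16 of the 26, against 66.1%. Among those 16 the nearest ends were those of raf2, a subunit of the Clr4 complex (28.2 ± 5.92 nt, SD, n = 2), and mit1 (30.8 ± 2.38 nt). The farthest were those of the CENP-B genes cbh1 (279 ± 6.83 nt) and abp1 (242 ± 5.38 nt). The window reads of mit1 were few, 57 in A and 67 in B. An ORF share of at least 10% in both replicates was found in 3 of 27 genes with enough reads, against 6.43% of all such genes: raf2 with 47.2% and 12%, mit1 with 20.8% and 14.1%, and hrr1, a helicase partner of Rdp1, with 50% and 91.2%. With 28 and 14 window reads, hrr1 met the minimum of 50 only through its ORF reads, so its share could not be under 10%. The 5 genes that were not measured were hrr1, cid12, ers1, epe1 and mmi1. The JmjC gene epe1, which counters heterochromatin, had no window read in A and 1 in B.

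The profiles were last compared in bins of 20 nt. Among members the most alike pairs were clr3 with swi6, which overlapped by 49.0% on average over the replicates, and clr1 with ago1, by 47.8%. Outside the members the most alike measured gene was cct1, a chaperonin subunit gene, for clr1 (84.0%), ade2, a purine synthesis gene, for ago1 (75.1%), tho1 for rdp1 (86.7%) and coa2 for chp1 (99.7%). It was SPAC1039.03 for clr2 (77.7%), meu29 for clr3 (71.7%) and cfh4 for swi6 (69.7%). With the same bins the A and B profiles of a gene overlapped by 53.0% (swi6) to 99.4% (chp1). In 6 of the 7 genes, all but ago1, this was less than the overlap with the most alike gene, which is the highest over all measured genes.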

How the data were processed

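Bowtie is the tool listed, per the submitters' processing notes. For its version and settings, as for the genome build, an entry was not given in the sources used here. The names of the deposited tables carry a reference tag that names no build. Per the file headers, the authors deposited a table per replicate and a merged one, with signal values (reads in the window of positions 1 to 400 after the stop codon, at the highest position and in the ORF), the ORF share in percent, and the level at each position in percent of the highest position. Low deposited signal values were multiples of 1 step, 0.930 in A and 0.870 in B (100% of 4949 and 5529 values of at most 100 were whole within 0.1), and all signal values were divided by it to give reads. No count test was possible with 1 group. All 5113 protein-coding features have the same stop codon coordinates as RefSeq ASM294v3, from which neighbours and sequences were taken. Mean positions differed from the deposited ones by at most 0.101 nt. Gene totals of A and B differed far beyond counting error (chi-square divided by its degrees of freedom, 404), so A and B were kept apart rather than pooled. Intervals, SEs and limits from counting alone can therefore understate the spread between the libraries. Calculations used Python 3.11.15 and numpy 2.4.6 and were tested on simulated data.

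Members and lists were chosen with earlier results of these data known. All members are named. Of the wider list, the 2 nearest and 2 farthest genes with replicates within 10 nt are named, with the genes behind counts of 5 or fewer and the SHREC genes, chosen after their values were seen. Alternatives were other read minimums, windows, measures and cluster rules, the merged table and leaving out each replicate.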

Additional observations from a re-analysis of the deposited data

How the results depend on the processing

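The 7 genes are shallow, with at most 857 window reads per replicate, and this limits single sites more than mean positions. With a minimum of 200 reads 4 genes (clr1, swi6, ago1 and rdp1) were measured. The median position of the 7 genes, 114 nt, was 100.5 nt with median positions of the reads, 108 nt with most used positions, 92.2 nt in positions 1 to 300, and 103 nt both at 200 reads and with annotated ends inside the window. It was 112 to 116 nt with 1 replicate left out. The median width, 77 nt, was 62 nt in positions 1 to 300, 93.8 nt at 200 reads and 66 to 74 nt with 1 replicate left out. With clusters of at least 20% of the reads 3 genes (swi6, ago1 and rdp1) had several, against 6. With the position below which 90% of the reads lie, 1 convergent gene, clr2, passed its neighbour, against 0 with most used sites. AATAAA without variants was found in 1 gene, clr3, against 5. With variants, a match was found in 6 genes in A alone and in 4 in B alone. With a threshold of 20% for the ORF share 1 gene, dcr1, passed, against 4, and dcr1 met the read minimum only through its ORF reads. The alternatives for the ORF share, those for annotated ends and those for the wider list were chosen after seeing the data. Of 63 values for the lists 50 stayed within 1.5 times the count or within 1 SD between replicates, and of 70 values for single genes 52 did. For a single gene the value with 1 replicate left out always lies within that SD. Such values could not move and are among the 52, so this count says little about stability. No paired analysis was possible because there is only 1 group. The difference between replicates has no value with 1 replicate left out.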
